A study of Mus musculus with 6 samples.

Results

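The genes that pump calcium out of the cytoplasm of mouse gastrocnemius, and the 2 small membrane proteins that act on those pumps, were followed from before birth to adulthood. The 8 members were taken by gene symbol from the 23367 gene entries of the expression table. They were the sarcoplasmic reticulum pumps Atp2a1, Atp2a2 and Atp2a3, the small regulators Sln and Pln, and the plasma membrane pumps Atp2b1, Atp2b3 and Atp2b4. All 8 were among the 16882 genes kept for testing. The mice were wild-type FVB animals, and polyadenylated RNA of their gastrocnemius, a calf muscle, was sequenced as 6 libraries covering 5 stages. The E18.5 library (embryonic day 18.5) came from pooled male and female mice, and the PN2 library (postnatal day 2) from pooled males. PN14 had replicates 1 and 2, and PN28 and adult (22 weeks) had 1 library each, every one of them from a single male.

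Muscle contracts when calcium leaves the sarcoplasmic reticulum, the internal calcium store of the fibre, and relaxes when calcium is pumped back. The pumps that refill the store are the SERCA family, encoded by the Atp2a genes, and they spend ATP to move calcium. Sarcolipin (Sln) and phospholamban (Pln) are very short proteins of the reticulum membrane that bind SERCA and lower its activity or its apparent affinity for calcium. The PMCA pumps, encoded by the Atp2b genes, export calcium across the plasma membrane and are stimulated by calmodulin.

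Each library held between 125402932 and 157868359 counts on genes. The 20 leading genes made up 16.0% of all counts in the E18.5 library and 36.9% in the adult one, so a gene whose RNA is steady reads lower in FPKM (fragments scaled to gene length and library total) in the later libraries. Fold changes were therefore computed from counts with TMM scaling, which centres the bulk of genes, and FPKM was used for levels and for ratios within a library. With library size alone, the median log2 fold change of all tested genes was -0.66 from PN2 to PN14, -0.92 from PN2 to PN28 and -1.08 from E18.5 to adult. Genes are described as called, or as having risen or fallen, where the adjusted p was below 0.05 and the fold change reached 1 or more on the log2 scale in either direction. Only PN14 had replicates, so the spread of that pair stood in for every stage, and E18.5 differed from the other stages also in holding female tissue. Each library had a sequencing lane of its own, and lane and stage cannot be told apart.

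The coding sequences of the 2 regulators are shown because the ratios of regulator to pump turn on them and each is short enough to be read whole. Both were read from the mm9 genome with GENCODE M1 gene models. Sln lies on the plus strand at chr9:53698058-53701651, and its whole coding sequence of 96 bases (31 codons and a stop) sits in exon 2 of 2 at chr9:53701280-53701375. Capitals mark codons 27 to 31, the tail of the protein that faces the interior of the reticulum. Pln lies on the plus strand at chr10:53057492-53065805, and its coding sequence of 159 bases (52 codons and a stop) also fills part of a single exon, at chr10:53063670-53063828. Capitals mark codons 16 and 17, which encode the serine and the threonine whose phosphorylation relieves the pump.
Sln: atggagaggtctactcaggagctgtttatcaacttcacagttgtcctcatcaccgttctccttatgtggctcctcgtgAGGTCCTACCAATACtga
Pln: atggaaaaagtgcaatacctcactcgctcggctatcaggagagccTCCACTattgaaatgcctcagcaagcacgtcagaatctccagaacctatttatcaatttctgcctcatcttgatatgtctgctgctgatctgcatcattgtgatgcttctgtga

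Atp2a1 encodes SERCA1, the pump of fast skeletal fibres, and lies on the minus strand of mm9 at chr7:133589372-133606622. Its level was 779 FPKM at E18.5, 1294 at PN2, 7878 and 5371 for PN14 replicates 1 and 2, 8445 by PN28 and 10409 in adult muscle. The 4 libraries from PN14 onwards did not overlap with the 2 earlier ones, and the gene stood at rank 12 of all entries by FPKM in the adult against rank 103 at E18.5. The log2 fold change was 3.04 (SE 1.62) from PN2 to PN14 and 4.77 (SE 1.86) from E18.5 to adult, and neither passed the quasi-likelihood test of edgeR, with p-values adjusted by Benjamini-Hochberg (adjusted p = 0.194 and 0.0728). DESeq2's Wald test, edgeR's exact test and the quasi-likelihood test with library size alone each called the gene in both comparisons. The PN14 replicates differed by -0.81 on the log2 scale (replicate 2 minus replicate 1, TMM), less than the standard error of the fit. The fast fibre genes that Atp2a1 is known to accompany had a summed level of 31800 FPKM at E18.5, 36400 at PN2, 134000 and 114000 at PN14, 151000 by PN28 and 138000 in adult muscle. In bulk RNA, fewer cells of a type and less RNA per cell cannot be told apart, for this and every gene below. GENCODE M1 gives Atp2a1 an alternative exon of 42 bases that holds a stop codon (exon 22 of 23, chr7:133590059-133590100), present in 1 of 2 coding transcripts. The deposited gene value does not separate these forms, and whether the RefSeq gene models behind it hold both was not checked. Rabep2 overlaps Atp2a1 exons on the other strand.

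Atp2a2 encodes SERCA2, the pump of slow fibres and heart and, in a longer form, of most other cells (mm9 chr5:122903531-122952183, minus strand). It had 143 FPKM at E18.5, 147 at PN2, 175 and 151 for the PN14 pair, 97.3 by PN28 and 107 in adult muscle. The highest library exceeded the lowest by 1.8-fold, the narrowest FPKM range of the 8 genes, and E18.5, PN2 and PN14 replicate 2 lay close together. With TMM scaling Atp2b1 had a narrower range, 0.63 on the log2 scale against 1.07 for Atp2a2. The log2 fold change was 0.81 (SE 0.389) from PN2 to PN14, with an adjusted p of 0.158 by edgeR's quasi-likelihood test. From E18.5 to adult it was 0.60 (adjusted p = 0.285 by the same edgeR test), but -0.43 with library size alone, so the direction of that difference rests on the scaling. The summed slow fibre genes had 2930 FPKM at E18.5, 2810 at PN2, 4360 and 3490 at PN14, 1590 by PN28 and 1360 in adult muscle. Like Atp2a2 on the FPKM scale, that sum was highest in PN14 replicate 1 and lower at PN28 and in the adult than before, and its part in the Atp2a2 values was not tested.

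Atp2a3 encodes SERCA3, a pump best known from platelets, endothelium and other non-muscle cells (mm9 chr11:72774671-72806546, plus strand). Its level was 3.31 FPKM at E18.5, 6.78 at PN2, 7.50 and 11.7 for PN14 replicates 1 and 2, 4.65 by PN28 and 2.44 in adult muscle. The peak was thus at PN14, where the replicates differed by 1.56-fold and both lay above every other library. From PN2 to PN14 the gene rose by a log2 fold change of 1.14 (SE 0.225, adjusted p = 0.0168, the quasi-likelihood test of edgeR, with p-values adjusted by Benjamini-Hochberg). With library size alone that value was 0.50 and the call was lost. Later differences, of -0.79 between PN14 and PN28 and -0.79 between PN28 and adult on the log2 scale, were not called (adjusted p = 0.508 and 0.195 by the same edgeR test). Endothelial markers summed to 170 FPKM at E18.5, 173 at PN2, 156 and 238 for the PN14 pair, 112 by PN28 and 59.8 in adult muscle, and 1 of the 5, Tie1, rose from PN2 to PN14. Platelet markers summed to 44.7, 43.8, 8.80, 15.2, 9.55 and 7.47 FPKM in the same order, and 1 of 3, Pf4, fell in that interval. Of all tested genes, 11.8% rose and 11.2% fell there. The part of these cells in the Atp2a3 values was not tested.

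Sln had 1175 FPKM at E18.5, 896 at PN2, 24.6 and 77.6 for PN14 replicates 1 and 2, 7.41 by PN28 and 5.72 in adult muscle. It went from rank 51 of all entries at E18.5 to rank 5811 in the adult, and the highest library exceeded the lowest by 205-fold, the widest range of the 8 genes. The counts behind these levels were 86222, 65380, 1437, 5436, 512 and 380 in the same order. From PN2 to PN14 Sln fell by 3.53 on the log2 scale (SE 0.518, adjusted p = 0.00846), and from E18.5 to adult it fell by 6.65 (SE 0.785, adjusted p = 0.00197), both by the quasi-likelihood test of edgeR, with p-values adjusted by Benjamini-Hochberg. The PN14 replicates differed by 3.16-fold, more than for any other member. The log2 fold change from PN2 to PN14 was -3.0 without replicate 1 and -4.40 without replicate 2. From PN14 to PN28 it was -2.50 (SE 0.61, unadjusted p = 0.00674, adjusted p = 0.47 by the same edgeR test), a difference that edgeR's exact test and library size alone called. It was -3.03 without replicate 1 and -1.65 without replicate 2.

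The embryonic and neonatal myosins Myh3 and Myh8, which mark immature fibres, moved in the same order across libraries after PN2. Their summed FPKM was 3780 at E18.5, 4570 at PN2, 19.2 and 57.3 for PN14 replicates 1 and 2, 2.82 by PN28 and 0.6 in adult muscle. Both fell from PN2 to PN14, where 11.2% of all tested genes fell. As with Sln, replicate 2 was the higher of the PN14 pair. Schwann cell markers also stood higher in replicate 2, with 618 against 156 FPKM, and E18.5, PN2, PN28 and adult had 30.4, 258, 132 and 89.9. The part of either difference in the Sln values was not tested.

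Pln was the rarest member, with 0.10 FPKM at E18.5, 0.26 at PN2, 1.25 and 1.18 for the PN14 pair, 1.11 by PN28 and 1.59 in adult muscle. These levels came from 38, 95, 363, 412, 380 and 525 counts, so the E18.5 value rested on the fewest counts of any member value. The PN14 replicates differed by only 1.06-fold, and the 4 libraries from PN14 onwards lay above both earlier ones without overlap. Pln rose by a log2 fold change of 2.88 from PN2 to PN14 (SE 0.372, adjusted p = 0.00659) and of 4.95 from E18.5 to adult (SE 0.441, adjusted p = 0.00126), by the quasi-likelihood test of edgeR, with p-values adjusted by Benjamini-Hochberg. The 2 regulators thus changed in opposite directions in both comparisons, under every scaling and test tried. Heart muscle markers, which could accompany Pln, summed to 26.5, 29.8, 52.6, 48.2, 16.8 and 13.8 FPKM from E18.5 to adult, with Nppa and Myl7 under 1 FPKM in every library. No marker of any list used was at 0 throughout. Smooth muscle, where Pln is also found, had summed markers of 318, 299, 143, 268, 90.4 and 47.9 FPKM in the same order. The part of either cell type in the Pln values was not tested. A predicted gene, Gm10942, overlaps Pln exons on the other strand, and whether reads were counted by strand is not stated in the sources used here.

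**Figure D1:**
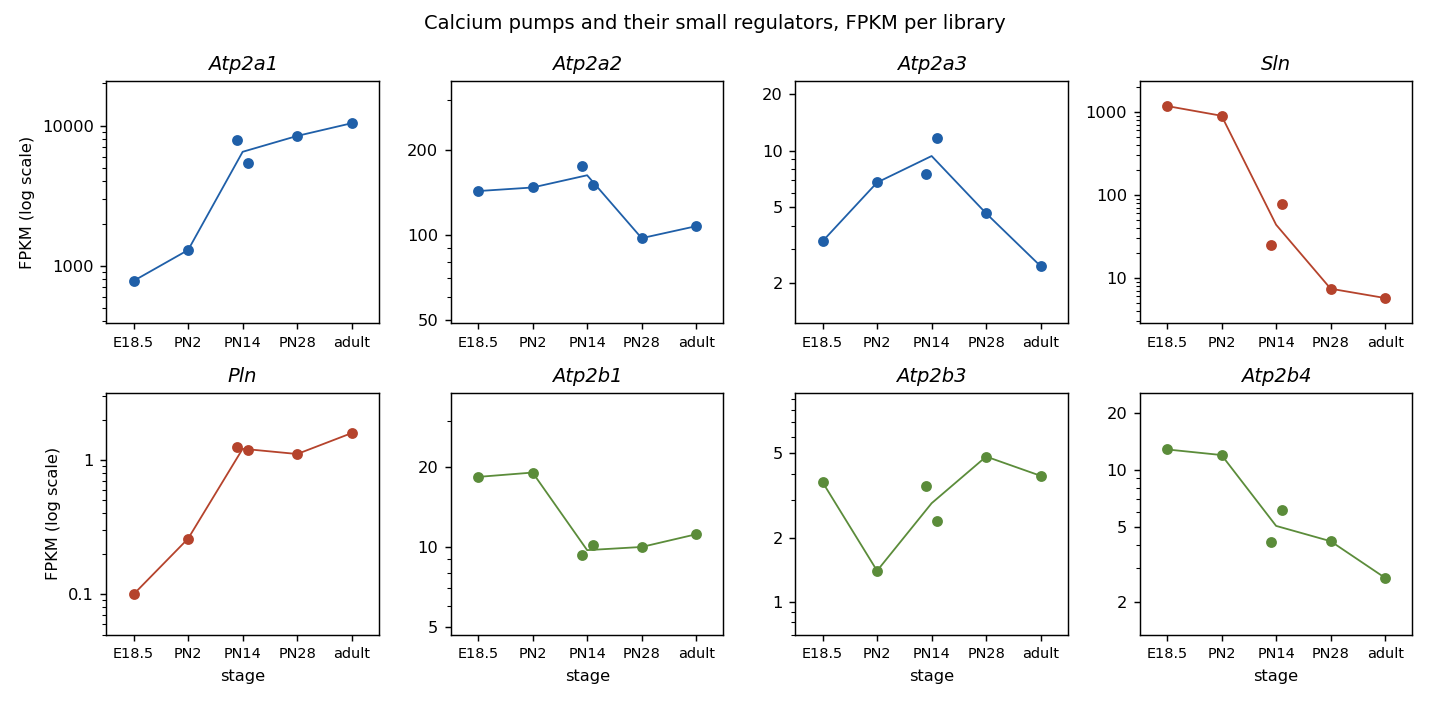
FPKM (log scale, y axis) of the 8 genes in each library (points) by stage (x axis), with lines through the single value or, at PN14, the geometric mean of replicates 1 and 2; each panel has its own axis. Atp2a1 went from 779 to 10409 FPKM and Sln from 1175 to 5.72 FPKM between E18.5 and adult, while Atp2a2 lay between 97.3 and 175 FPKM.

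Among the plasma membrane pumps, Atp2b1, the most widely expressed of the family (mm9 chr10:98377786-98488777, plus strand), had 18.4 FPKM at E18.5, 19.1 at PN2, 9.37 and 10.2 for the PN14 pair, 10.03 by PN28 and 11.2 in adult muscle. The 4 later libraries lay below the 2 earlier ones on this scale. With TMM scaling the levels were 89.9, 93.5, 79.1, 71.7, 90.6 and 111 CPM, and the early and late libraries overlapped. The log2 fold change from E18.5 to adult was 0.31 (adjusted p = 0.28 by edgeR's quasi-likelihood test) with TMM but -0.72 with library size alone, so no direction can be given for it. No setting tried called Atp2b1 in any comparison.

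Atp2b3, a plasma membrane pump known mainly from neurons and also found in skeletal muscle (mm9 chrX:70748425-70816344, plus strand), had 3.66 FPKM at E18.5, 1.40 at PN2, 3.52 and 2.41 at PN14, 4.83 by PN28 and 3.92 in adult muscle. PN2 was the lowest library, and all the others were higher. Atp2b3 rose from PN2 to PN14 by a log2 fold change of 1.77 (SE 0.366, adjusted p = 0.0191) and from PN2 to PN28 by 2.67 (SE 0.411, adjusted p = 0.0102), by the quasi-likelihood test of edgeR, with p-values adjusted by Benjamini-Hochberg. Both calls use the single, pooled PN2 library as their reference. Against E18.5 the adult differed by 1.13 (SE 0.39), just outside the threshold (adjusted p = 0.0518 by the same edgeR test). DESeq2's Wald test, edgeR's exact test and the fit with no filter called this difference, while with library size alone it was 0.10. Summed neuron markers were at most 0.47 FPKM in any library and were highest at E18.5, and their part in the Atp2b3 values was not tested.

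Atp2b4 (mm9 chr1:135599255-135697618, minus strand), a pump also found in red cells and smooth muscle, had 12.8 FPKM at E18.5, 12.0 at PN2, 4.15 and 6.12 for the PN14 pair, 4.18 by PN28 and 2.67 in adult muscle. The 4 later libraries were all below the 2 earlier ones, and with TMM scaling too the range was 30.3 to 49.3 against 66.8 to 71.6 CPM. From E18.5 to adult Atp2b4 fell by 1.24 on the log2 scale (SE 0.237, adjusted p = 0.00732, the quasi-likelihood test of edgeR, with p-values adjusted by Benjamini-Hochberg). From PN2 to PN14 the log2 fold change was -0.58 (adjusted p = 0.0701 by the same edgeR test), and with library size alone it was -1.22 and was called. Smooth muscle markers, given above, were lowest in the adult as Atp2b4 was, and 2 of 4, Acta2 and Cnn1, fell from E18.5 to adult, where 23.6% of all tested genes fell. Erythroid markers summed to 3520, 646, 946, 531, 533 and 160 FPKM from E18.5 to adult, and 4 of 4 fell over that span, against the same background. The part of these cells in the Atp2b4 values was not tested. Atp2b2, the remaining gene of the family and not a member, stayed at or under 0.19 FPKM.

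Of the 8 members, 4 were called from PN2 to PN14, of which Atp2a3, Atp2b3 and Pln rose and Sln fell. The background in that comparison was 23.0% of all tested genes, 11.8% rising and 11.2% falling. The median log2 fold change of the members was 0.98, against -0.01 over all genes tested. From PN2 to PN28, 3 members were called (Atp2b3 and Pln rising, Sln falling), where 27.0% of tested genes were called, 14.3% rising and 12.7% falling. From E18.5 to adult, 3 members were called (Pln rising, Sln and Atp2b4 falling), against a background of 44.9%, with 21.4% rising and 23.6% falling. The counts of 3 of 8 lie near these backgrounds and are not a result about the group. The comparisons of PN2 with PN14 and with PN28 share the PN2 library, and neighbouring intervals share the library between them.

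The other intervals gave no called member by edgeR's quasi-likelihood test. From E18.5 to PN2, 0.0296% of tested genes were called, and 1121 of all 16882 had an unadjusted p under 0.05. Among the members 3 had such a p, with log2 fold changes of 1.03 for Atp2a3, -1.38 for Atp2b3 and 1.33 for Pln. From PN14 to PN28 the background was 0.0178%, and 3 members had an unadjusted p under 0.05, namely Sln, Atp2a3 and Atp2b3 (log2 fold change 0.90). Of all 16882 tested genes, 1420 had such a p in that interval. Of the other tests there, edgeR's exact test and library size alone called 1 member each, Sln, and 241 and 262 of all tested genes. From PN28 to adult the background was 0.521%, Atp2a3 alone had an unadjusted p under 0.05, and none of the alternatives called a member. Such a p was found for 3091 of all 16882 tested genes in that comparison.

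**Figure D2:**
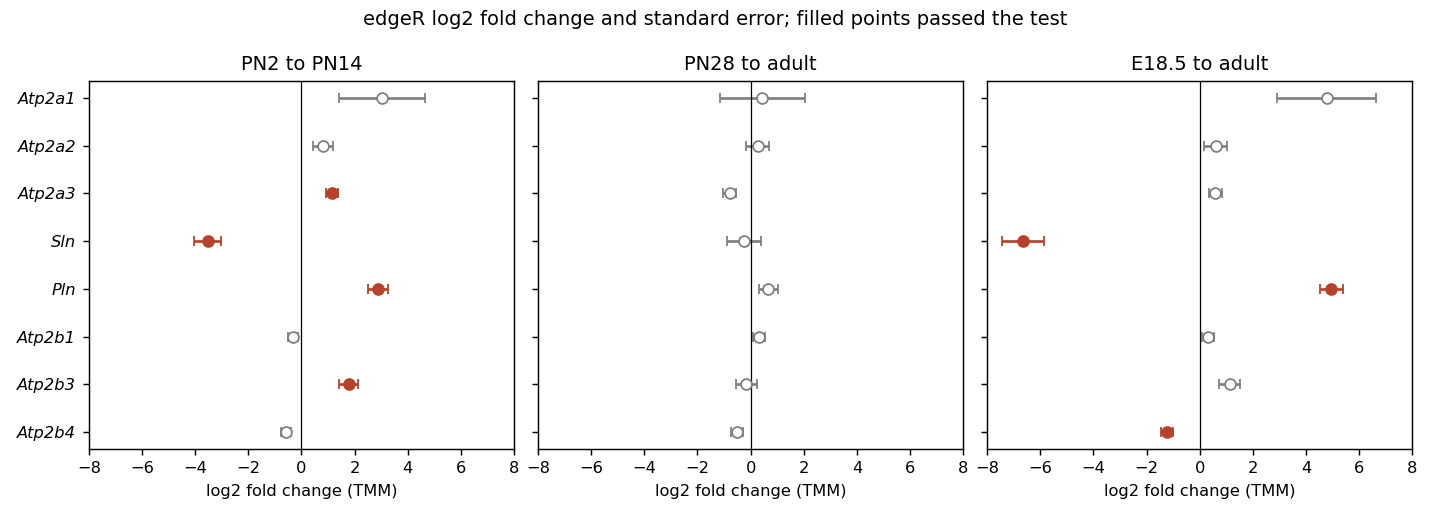
Log2 fold change (x axis, TMM scaling, bars are the standard error of the edgeR fit) of the 8 genes (y axis) in 3 comparisons; filled points were called. Pln and Sln were called on opposite sides of 0 from PN2 to PN14 and from E18.5 to adult, and no point is filled from PN28 to adult.

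The ratio of regulator to pump transcripts was taken within each library, where scaling between libraries drops out. The summed FPKM of Sln and Pln per summed SERCA FPKM was 1.27 at E18.5, 0.619 at PN2, 0.0032 and 0.0142 for PN14 replicates 1 and 2, 0.000997 by PN28 and 0.000695 in adult muscle. Put the other way, pump FPKM per regulator FPKM was 0.788 at E18.5, 1.62 at PN2, 312 and 70.2 at PN14, 1000.0 by PN28 and 1440 in adult muscle. Regulator FPKM therefore exceeded pump FPKM in the E18.5 library alone. On the log2 scale the ratio changed by -6.52 from PN2 to PN14 (91.7-fold) and by -10.84 from E18.5 to adult (1830-fold), against a gap of 2.15 between the PN14 replicates. The changes of -1.04 from E18.5 to PN2 and -0.52 from PN28 to adult were smaller than that gap. From counts with no length correction the change from E18.5 to adult was -9.88. No test of the ratio was run.

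Both terms of that ratio differed between stages. The SERCA sum was 925 FPKM at E18.5, 1450 at PN2, 8060 and 5530 at PN14, 8550 by PN28 and 10500 in adult muscle, and Sln was the larger part of the regulator sum in every library. Sln exceeded Pln by 11700-fold at E18.5, by 3450-fold at PN2, by 19.7-fold and 65.8-fold for the PN14 pair, by 6.68-fold by PN28 and by 3.6-fold in adult muscle. Pln per Atp2a2, the pair that works together in heart, took the opposite course to Sln per Atp2a1. It was 0.0007 at E18.5, 0.00177 at PN2, 0.00712 and 0.00783 at PN14, 0.0114 by PN28 and 0.0148 in adult muscle, a log2 change of 4.40 from first to last against a replicate gap of 0.14. Sln per Atp2a1 was 1.51, 0.693, 0.00312, 0.0145, 0.000877 and 0.00055 in the same order.

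Myoregulin, another short inhibitor of SERCA made in skeletal muscle, is listed in the table as 2310015B20Rik and was the 1 gene of 4 found in the list of other small SERCA regulators (Strit1, Erln and Arln were not matched by symbol). It had 77.9 FPKM at E18.5, 93.7 at PN2, 57.2 and 67.3 for the PN14 pair, 82.1 by PN28 and 142 in adult muscle. Its level was below that of Sln in E18.5, PN2 and PN14 replicate 2 and above it in PN14 replicate 1, PN28 and the adult. Its FPKM per Sln FPKM was 0.0663 at E18.5, 0.104 at PN2, 2.33 and 0.867 at PN14, 11.1 by PN28 and 24.8 in adult muscle. It rose by a log2 fold change of 1.89 from E18.5 to adult (SE 0.199, adjusted p = 0.00159, the quasi-likelihood test of edgeR, with p-values adjusted by Benjamini-Hochberg), and was 0.07 from PN2 to PN14 (adjusted p = 0.787 by the same test). With library size alone these values were 0.87, no longer a call, and -0.59. With myoregulin added to Sln and Pln, the regulators per SERCA transcript were 1.35 at E18.5, 0.684 at PN2, 0.0103 and 0.0264 at PN14, 0.0106 by PN28 and 0.0142 in adult muscle. The last 4 libraries then overlapped, where the ratio of Sln and Pln alone was lower at PN28 and in the adult than in either PN14 replicate.

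**Figure D3:**
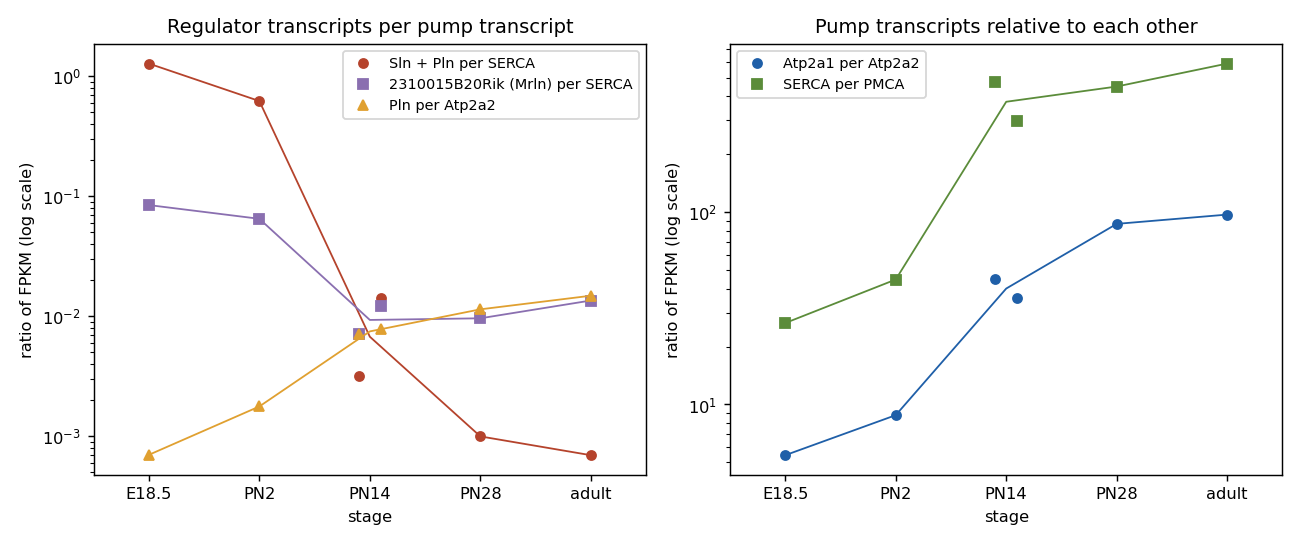
Ratios of FPKM within each library (log scale, y axis) by stage (x axis), with points for libraries and lines through the geometric mean at PN14; the left panel shows regulators per pump and the right panel pumps relative to each other. Sln and Pln per SERCA went from 1.27 to 0.000695 between E18.5 and adult, Pln per Atp2a2 from 0.0007 to 0.0148, and Atp2a1 per Atp2a2 from 5.45 to 97.0.

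Within the SERCA family Atp2a1 was the main transcript in every library, with 84.2% of the summed FPKM at E18.5, 89.4% at PN2, 97.7% and 97.1% for the PN14 pair, 98.8% by PN28 and 99.0% in adult muscle. Atp2a2 made up most of the rest, 15.4%, 10.2%, 2.18%, 2.72%, 1.14% and 1.02% in the same order, and Atp2a3 was at most 0.468%. Atp2a1 per Atp2a2 was 5.45 at E18.5, 8.80 at PN2, 44.9 and 35.7 at PN14, 86.8 by PN28 and 97.0 in adult muscle. Its log2 change was 2.19 from PN2 to PN14 and 4.15 from E18.5 to adult, against a gap of 0.33 between the PN14 replicates.

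The PMCA genes were far less abundant, and their sum was 34.9 FPKM at E18.5, 32.5 at PN2, 17.0 and 18.7 at PN14, 19.0 by PN28 and 17.8 in adult muscle. SERCA transcripts exceeded PMCA transcripts by 26.5-fold at E18.5, 44.6-fold at PN2, 473-fold and 296-fold for the PN14 pair, 449-fold by PN28 and 591-fold in adult muscle. Atp2b1 was the leading PMCA transcript throughout, with between 52.7% and 63.0% of the sum. Atp2b4 held 36.7% at E18.5 and 15.0% in the adult, and Atp2b3 held 10.5% and 22.0%. PN2 had the lowest Atp2b3 share, 4.31%, and PN28 the highest, 25.4%.

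**Figure D4:**
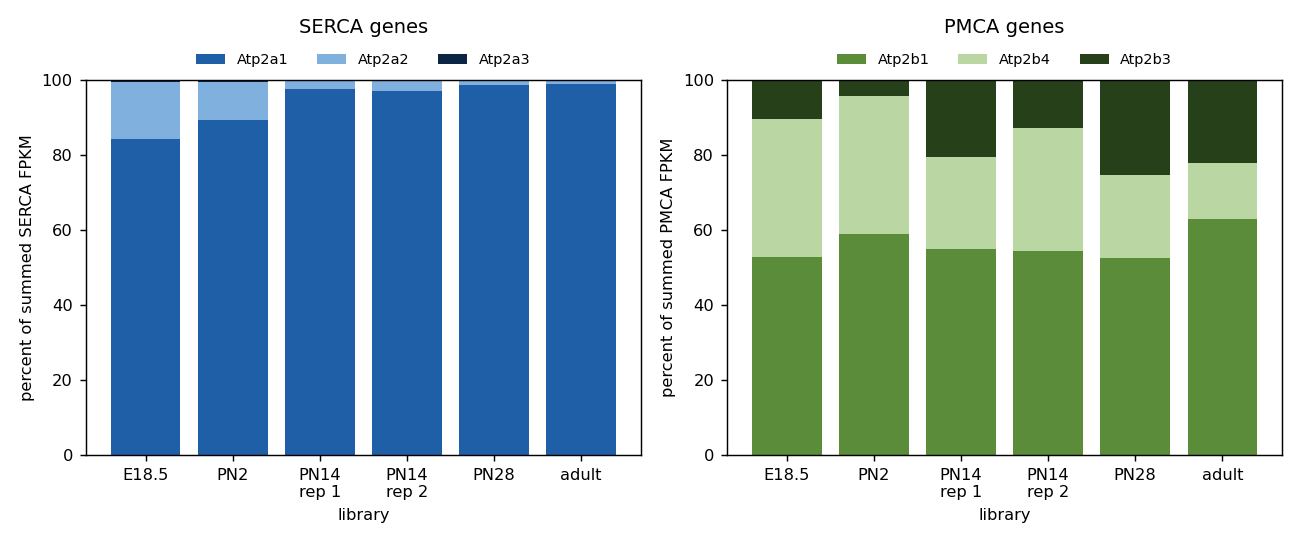
Percent of the summed FPKM (y axis) that each gene took within its pump family, for the SERCA genes (left) and the PMCA genes (right), in each of the 6 libraries (x axis). Atp2a1 took 84.2% of SERCA FPKM at E18.5 and 99.0% in the adult, while Atp2b1 held between 52.7% and 63.0% of PMCA FPKM.

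The genes that work beside the pumps were read from lists chosen by function. Of 15 genes of the triad, the junction where calcium is released, 8 rose and 1 fell from PN2 to PN14, with a median log2 fold change of 1.54, where 11.8% of all tested genes rose and 11.2% fell. Jsrp1, a junctional protein, had 111 FPKM at PN2 and 305 ± 7.11 at PN14 (SD, n = 2) and was called, whereas Cacng1, a calcium channel subunit, had 248 and 254 ± 12.1 and was not. The gene that fell was Ryr3, a release channel, from 7.93 FPKM at PN2 to 0.13 and 0.95 in the PN14 replicates. Of 8 storage and buffering genes, Pvalb, S100a1 and Casq1 rose, Casq2 fell and 4 were not called, with a median of 1.24, against the same background. Pvalb, the cytoplasmic calcium buffer of fast fibres, had 93.7 FPKM at PN2 and 17500 ± 4650 at PN14. Casq1, the calcium-binding protein of the fast fibre store, had 550 and 3340 ± 373, while its relative Casq2 had 417 at PN2 and 53.3 and 75.4 in the PN14 replicates.

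Of 9 tested genes for other routes of calcium removal, Letm1, a mitochondrial exchanger, rose and Slc8a1, the sodium-calcium exchanger of the plasma membrane, fell from PN2 to PN14, and the median was -0.11. These counts lie near the background, where 11.8% of all tested genes rose and 11.2% fell, and are not a result about the list. Letm1 had 14.9 FPKM at PN2 and 33.4 ± 1.76 at PN14 (SD, n = 2). Slc8a1 was also the only gene of the calcium lists called from PN28 to adult, where 0.521% of all tested genes were called. In that comparison Slc8a1 rose from 0.44 to 1.39 FPKM (log2 fold change 1.80, SE 0.203, adjusted p = 0.0476 by edgeR's quasi-likelihood test). Among partners of the plasma membrane pumps, Bsg, basigin, had 217 FPKM at PN2 and 279 ± 11.3 at PN14, and Calm2 had 274 and 175 ± 28.2, and neither was called. With library size alone the medians of the triad, storage and removal lists were 0.86, 0.57 and -0.76.

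Among the fibre lists, 3 of 10 fast fibre genes and 2 of 7 slow fibre genes rose from PN2 to PN14 and none fell, against 11.8% of all tested genes rising. The medians were 2.66 and 0.87, and 1.98 and 0.19 with library size alone. From PN28 to adult none of the 48 tested genes of the fibre and cell type lists was called by the edgeR quasi-likelihood test. Only 0.521% of all tested genes were called there, so the absence of calls is not a result about these lists. Of the 48 genes, 10 had an unadjusted p under 0.05 by that test. DESeq2's Wald test called 3, edgeR's exact test 5, library size alone 7 and the fit with no filter 1. Over all 16882 tested genes, 3091 had an unadjusted p under 0.05 from PN28 to adult by the quasi-likelihood test. The alternatives called 771, 1146 and 868 of these 16882 in the same order, and the fit with no filter 835 of 19590. The most abundant named genes of the fast list were below the call from PN2 to PN14 (Mylpf, 11142 FPKM at PN2 and 34800 ± 3460 at PN14, and Tnnt3, 4617 and 16300 ± 2800). Those of the slow list were divided, as Myl2 rose from 481 to 1030 ± 176 and Tnnt1 had 527 and 601 ± 80.4. From PN2 to PN14 the marker lists without a call by edgeR's quasi-likelihood test were those of smooth muscle, erythroid cells, macrophages and Schwann cells. They were grouped here because they had none. Of their 14 genes, 4 had an unadjusted p under 0.05, and DESeq2's Wald test called 0, edgeR's exact test 2 and library size alone 7. Of all 16882 tested genes, 7730 had an unadjusted p under 0.05 in that interval. The same alternatives called 3298, 4663 and 5825 of them. Myh6, 1 of 4 heart markers, rose, and Syt1 and Rbfox3, 2 of 3 neuron markers, fell from 0.17 and 0.10 FPKM at PN2. Both neuron markers were at or under 0.01 FPKM in the PN14 replicates, near the floor. Of all tested genes, 11.8% rose and 11.2% fell in that interval. Macrophage markers summed to between 8.16 and 26.5 FPKM.

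The genes with the most similar course to each member were found by the root mean square difference of centred log2 profiles over the 6 libraries, among 5166 genes with a mean of at least 10 FPKM. The nearest to Atp2a1 were Pcp4l1 (0.10) and Cdnf (0.11), to Atp2a2 Leng8 (0.05) and Sfrs18 (0.14), and to Atp2a3 Mgll (0.16) and Smtnl1 (0.23). Sln had the most distant neighbours, Zim1 (0.37) and Igfbp2 (0.50), and Pln had Ecsit (0.09) and Epdr1 (0.13). For Pln the likeness rests on the 0.5 CPM added before the logarithm, which exceeds its 0.166 CPM at E18.5 and 0.418 CPM at PN2: Ecsit had 18.2 FPKM at E18.5 and 65.9 in the adult, a smaller fold than that of Pln. For the plasma membrane pumps they were E430025E21Rik (0.03) and Drosha (0.04) for Atp2b1, Aldh4a1 (0.25) and Dgat2 (0.25) for Atp2b3, and Rcc1 (0.05) and Ppil1 (0.06) for Atp2b4. Zim1 had 78.8 FPKM at E18.5, 76.1 at PN2, 2.06 and 6.26 at PN14, 1.17 by PN28 and 0.46 in adult muscle. These likenesses describe 6 libraries, in each of which all genes share 1 lane and 1 scaling factor.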

How the data were processed

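The table deposited by the authors holds, for 23367 gene entries in 6 libraries, expected counts (not normalized) and FPKM values. Per the paper's methods and the submitters' processing notes, the authors aligned reads to mm9 with TopHat2 2.0.5 and made the estimated counts and FPKM with RSEM on RefSeq gene models. The RSEM version and the strand setting are not given in the sources used here. The authors scaled FPKM to gene length and library total only.

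After rounding, counts were tested with edgeR 4.0.16 under R 4.3.3 (TMM, filterByExpr, quasi-likelihood test, Benjamini-Hochberg over 16882 genes), with all libraries in 1 fit, 5 stages as groups and 1 residual degree of freedom. The standard error is the log2 fold change divided by the square root of its F statistic. On data simulated from PN2 to PN14, 193 of 200 genes changed 4-fold were recovered among the 16882, with 1 false call among 194. The simulation gave every gene the same biological coefficient of variation, 0.188, and changed only genes with at least 1 CPM at PN2. The spread of real genes differs from gene to gene, so these figures check the code and do not give the error rates in these data. Alternatives were library size alone, DESeq2 size factors, the Wald test of DESeq2 1.42.0, edgeR's exact test, no filter, and either PN14 replicate left out. Replicates at PN14 were 2 separate mice, so p-values measure the spread between those animals only. Patterns used log2(TMM CPM + 0.5). Positions and sequences came from GENCODE M1 and its genome (mm9), and none of the members' 100-base stretches occurred in another gene's coding transcripts. All members were named, with the 2 most abundant genes of each of 16 lists and the 2 nearest patterns per member, and other genes were named after their values were seen. The members and lists were chosen with earlier results of these data known. Some listed genes are not reported here. Splicing was not analysed here.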

Additional observations from a re-analysis of the deposited data

How the results depend on the processing

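No paired analysis was possible because only PN14 has numbered replicates and no other stage shares them. Of the member fold changes, all 48 kept their direction and side of the threshold with DESeq2 size factors, 44 with DESeq2's Wald test, 43 with edgeR's exact test, 46 with no filter and 35 with library size alone. The members called from PN14 to PN28 became 1 with library size alone and with edgeR's exact test, and those from PN2 to PN28 became 5 with library size alone. Those from E18.5 to adult became 5 with DESeq2's Wald test, edgeR's exact test or no filter. Over all tested genes the calls from E18.5 to adult were 6458 and 8155 of 16882 with the Wald and exact tests. With no filter they were 7656 of 19590. Library size alone reversed Pln from PN14 to PN28 (-0.14), Atp2a2 and Atp2a3 from PN2 to PN28 (-0.61 and -0.54), and Atp2a2, Atp2a3 and Atp2b1 from E18.5 to adult (-0.43, -0.43 and -0.72). That setting shifts the median of all genes down, as given above. Of all tested genes, it called 854 rising and 4971 falling from PN2 to PN14 (1988 and 1896 with TMM), 852 and 6299 from PN2 to PN28 (2415 and 2151), and 1347 and 7700 from E18.5 to adult (3606 and 3978). From PN28 to adult the split was 141 and 727 against 27 and 61, and from PN14 to PN28 it was 94 and 168 against 3 and 0. The number of all genes called from E18.5 to PN2 was 5 with TMM, 241 with library size alone, 155 with the Wald test, 346 with the exact test and 97 with no filter. From PN14 to PN28 the last 3 gave 132, 241 and 56, and from PN28 to adult 771, 1146 and 835. The regulator-to-SERCA change from PN2 to PN14 ranged from -7.59 to -5.44 with 1 PN14 replicate left out, and that of Atp2a1 per Atp2a2 from 2.02 to 2.35, in both cases without a test since no stage then has replicates. From counts with no length correction, the regulator-to-SERCA change was -9.88 from E18.5 to adult. The cause of the other differences between settings was not tested. The Pln level at E18.5 rested on 38 counts, although that library had the highest total count.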
